A study of Saccharomyces cerevisiae with 18 samples.

Results

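Expression of 36 genes of DNA replication, sister chromatid cohesion and the repair of replication errors was followed in budding yeast with altered Swi6, a transcription factor of the G1/S transition. The genes were chosen by name for their function at the fork, in the clamp loaders, in cohesin or in repair, and most of them are known as G1/S genes controlled by MBF, the complex of Mbp1 and Swi6. All 36 were found among the 5449 genes measured, each by 1 probe set. All 36 had a mean signal above the background level of 4.52, which was the 95th percentile of the signals of probe sets for the other organism on the array, and their mean log2 signals ran from 8.72 for ECO1 to 12.52 for RFA3.

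The study compared Saccharomyces cerevisiae cells carrying Swi6 with a cysteine changed to alanine (C404A), cells lacking SWI6 (the deletant) and SWI6 wild type cells, each with and without linoleic acid hydroperoxide (LoaOOH, an oxidised fatty acid that stresses cells), to ask whether this cysteine takes part in the redox control of the cell cycle. The 6 groups were therefore C404A with LoaOOH and C404A control, deletant with LoaOOH and deletant control, and wild type with LoaOOH and wild type control, with 3 arrays in each and 18 in all. Treated cells received 30 µM LoaOOH for 45 min, and controls received none. Every culture, controls included, was grown at 30 °C to an OD600 of 0.4 in synthetic medium without leucine. The sources used here do not give the strain background, what carried each SWI6 allele or whether the mutants were single clones, and no synchronisation of the cells is described. Nothing in the labels states that the 3 replicates of a group were grown separately; p-values therefore measure only how far these samples spread, and that spread may be technical.

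As background, Swi6 is the shared regulatory subunit of MBF and of SBF, the pair of factors that switch on transcription late in G1. MBF is known above all for genes of DNA synthesis and repair, and SBF for genes of budding, the cell wall and G1 cyclins. At the fork, the helicase opens the DNA, RPA coats the single strands, primase and the polymerases copy them, the clamp and its loaders hold the polymerases in place, and cohesin ties the sister chromatids together as they are made.

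The labels were checked against SWI6 itself. Its mean log2 signal was 10.29 in C404A with LoaOOH and 10.23 in the C404A control, and 10.54 and 10.38 in the matching wild type groups. In the deletant it was 3.70 with LoaOOH and 3.45 without, under the background level. The a-cell receptor gene STE2 averaged 13.55 to 13.80 in every group and the alpha-cell receptor gene STE3 7.85 to 8.09, while the alpha-factor gene MF(ALPHA)1 averaged 6.20 and 6.31 in the 2 C404A groups, 7.005 and 7.285 in the 2 deletant groups, and 5.69 and 5.59 in the 2 wild type groups. The other alpha-cell genes did not share this spread, with MF(ALPHA)2 at 5.48 to 5.95 and SAG1 at 9.35 to 9.79 over the groups. In control arrays MF(ALPHA)2 was lower in the deletant (5.67) than in wild type (5.95). The other a-cell genes BAR1, MFA1, STE6 and AGA2 averaged 11.58 to 13.05. The 259 genes of chromosome V stood apart in both mutants, with a median per array 0.62 to 0.79 above the wild type control mean, against -0.02 to 0.02 on the wild type arrays. None of the 36 genes lies on chromosome V. Shares of all genes called between genotypes, or over all comparisons together, are therefore given below also without that chromosome. The other shares include it, namely those at an unadjusted p, of groups that do not overlap, for LoaOOH against control and in fits that leave out arrays. The replicate 2 arrays of C404A also stood apart: across genes, their LoaOOH minus control difference correlated at -0.50 with the mean response of the other genotypes, against 0.65 to 0.87 for the other 8 pairs, and results are given with and without these 2 arrays. A correlation below 0 is what an exchange of these 2 arrays would give, and such an exchange was not tested. Both arrays were used as labelled, so the treatment printed for each value of C404A array 2 rests on the labels. Array descriptions carry the prefix CT for replicates 1 and 2 (12 arrays) and JC for replicate 3 (6 arrays) and the sources used here do not explain these letters.

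**Figure D1:**
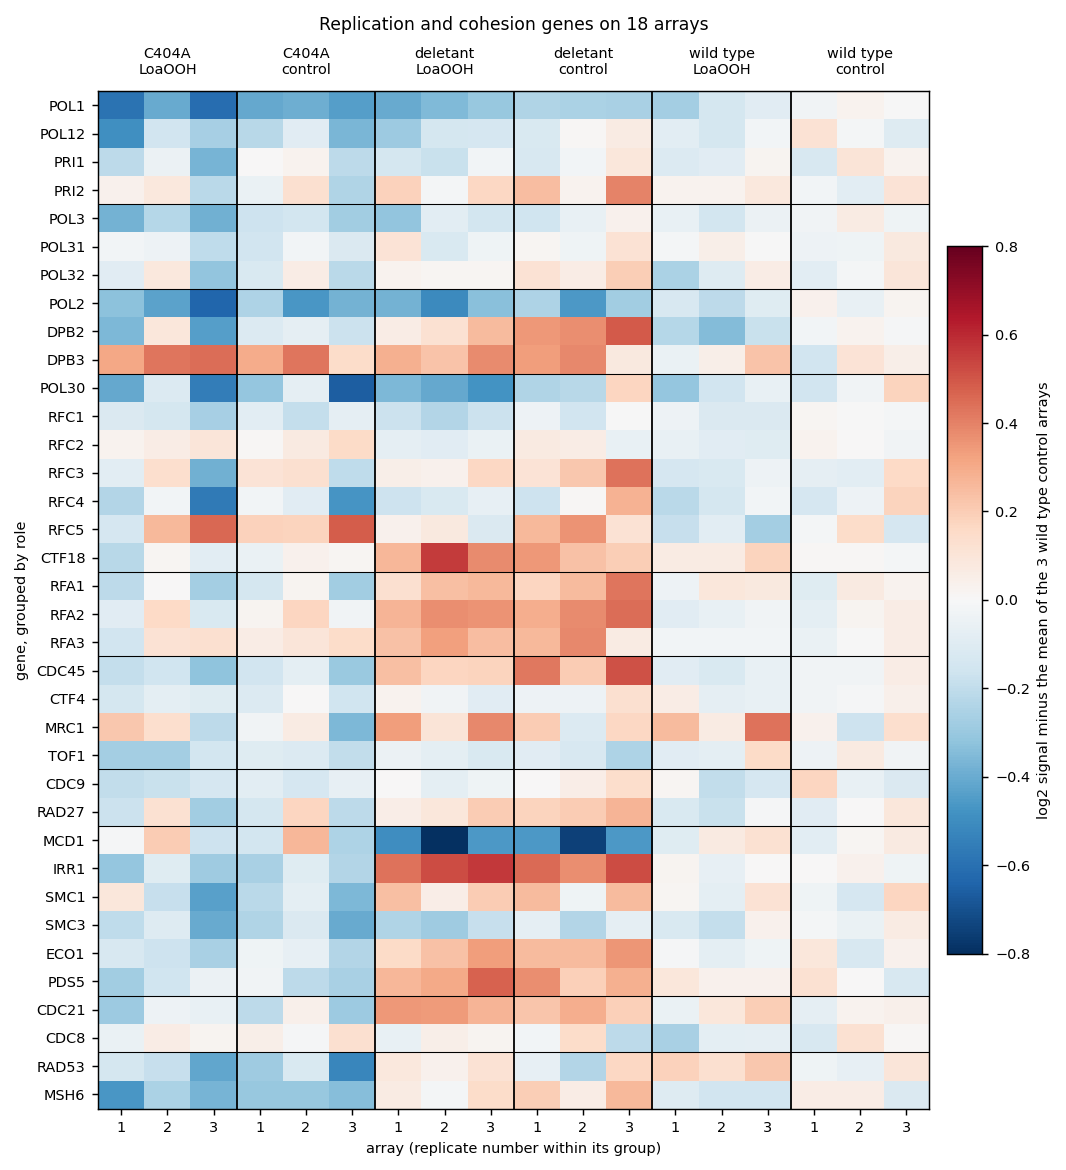
Log2 signal of each of the 36 genes (vertical axis, grouped by role) on each of the 18 arrays (horizontal axis, 3 arrays per group), drawn as the difference from the mean of the 3 wild type control arrays. The deletant columns are mostly positive with MCD1 as a negative line, and the C404A columns are mostly negative, more so on arrays 1 and 3 than on array 2.

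The replication and cohesion genes differed between the 3 genotypes in small steps. In control arrays, 28 of the 36 differences from wild type were below 0 in C404A, and 24 of the 36 were above 0 in the deletant. Over all 5449 genes, 3092 were below 0 in C404A and 2642 above 0 in the deletant. Relative to wild type, the deletant had higher signals of the polymerase epsilon subunit DPB2, the RPA subunit RFA2, the helicase factor CDC45, the clamp loader subunit CTF18 and the cohesin genes IRR1 and ECO1, and a lower signal of the cohesin gene MCD1. C404A cells had none of these differences from wild type past the threshold, but had lower POL1 and POL2, the catalytic subunits of polymerases alpha and epsilon, which were also called lower in the deletant in control arrays. The control call of CTF18 and the LoaOOH call of POL2 in C404A were lost when the genes of chromosome V were left out. The largest differences were between the 2 mutants, at up to 1.66-fold (IRR1). LoaOOH changed none of the 36 genes past the threshold in any genotype. Called here means an adjusted p under 0.05 in limma's moderated test, two-sided, with Benjamini-Hochberg adjustment over all 5449 genes, and differences are on the log2 scale.

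With LoaOOH, 8 of the 36 genes were called higher and 1 lower in the deletant than in wild type, where 7.36% of all genes were called higher and 3.05% lower (3.58% and 3.2% of genes outside chromosome V). In control arrays, 6 were called higher and 3 lower in the deletant than in wild type, where 6.94% of all genes were called higher and 3.17% lower (3.18% and 3.31% outside chromosome V). At an unadjusted p under 0.05 there were 14 of the 36 with LoaOOH (22.6% of all genes) and 16 in control arrays (22.1%). The median difference of the 36 was 0.09 with LoaOOH and 0.10 in control arrays, beside medians of -0.00 and -0.01 over all genes. The genes called higher in control arrays, namely DPB2, CTF18, RFA2, CDC45, IRR1 and ECO1, were all 6 called higher with LoaOOH too, where they made up 75% of the 8. Of the genes called lower, MCD1 was the 1 of 3 in control arrays that was also called with LoaOOH. The share of calls made in both treatments was not computed over all genes, here or in the comparisons below. Whether these 36 genes repeat more often than other called genes therefore cannot be said.

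In C404A with LoaOOH, 3 genes (POL1, POL2 and RAD53) were called lower and 0 higher than in wild type, where 2.04% of all genes were called lower and 5.34% higher (2.14% and 1.58% outside chromosome V). By limma, 15 of the 36 had an unadjusted p under 0.05 (22.7% of all genes). In control arrays, again 3 (POL1, POL2 and MSH6) were called lower and 0 higher, where 2.62% of all genes were called lower and 5.62% higher (2.76% and 1.81% outside chromosome V), and 12 had an unadjusted p under 0.05 (24.5% of all genes). The median difference of the 36 was -0.14 with LoaOOH and -0.11 in control arrays, beside -0.03 over all genes in each. POL1 and POL2 were called lower in both treatments, 66.7% of the 3 calls in each.

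The direct comparison of the mutants set C404A below the deletant. With LoaOOH, 8 genes were called lower in C404A and 1 (MCD1) higher, where 0.789% of all genes were called lower and 0.661% higher (0.809% and 0.636% outside chromosome V), and 16 of the 36 had an unadjusted p under 0.05 (12.9% of all genes). In control arrays, 9 were called lower and 0 higher, where 1.08% of all genes were called lower and 0.716% higher (1.1% and 0.713% outside chromosome V), and 19 had an unadjusted p under 0.05 by limma (15.1%). The medians of the 36 were -0.15 with LoaOOH and -0.21 in control arrays, beside -0.02 over all genes in each. RFA2, CDC45, IRR1, ECO1, PDS5, CDC21 and MSH6 were called lower in both treatments, 87.5% of the 8 with LoaOOH and 77.8% of the 9 in control arrays. The comparisons with wild type share the wild type arrays, and each mutant's arrays enter 2 of the 3 comparisons of a treatment.

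The groups of 3 arrays did not overlap for more genes than were called. With LoaOOH, the deletant and wild type arrays did not overlap for 21 of the 36 genes (32.9% of all genes), C404A and wild type for 17 (23.5%), and C404A and deletant for 16 (18%). In control arrays these counts were 16 (29% of all genes), 13 (31.8%) and 16 (19.8%). In all, 15 of the 36 genes were called in at least 1 of 11 comparisons, 12 in at least 2 and 21 in none, which gave 42 calls. Over the same comparisons, 19.4% of all genes were called in at least 1 and 11.1% in at least 2 (15.8% and 7.32% of genes outside chromosome V). Computed within the CT arrays and within the JC arrays, the difference had the same direction in both for 42 of 42 calls. The calls were made on these same arrays, which favours agreement in direction, so the count does not show replication. With the CT arrays alone, 6 of the 42 calls were still made. The difference ran from 0.21 to 0.74 in size in the CT arrays and from 0.20 to 0.85 in the JC arrays, and was larger in the JC arrays for 30. Without the 2 replicate 2 arrays of C404A, 37 of the 42 calls remained and the 5 lost were both POL2 calls of C404A against wild type, PDS5 in C404A against the deletant without LoaOOH, PDS5 in the deletant against wild type with LoaOOH, and MCD1 in C404A against the deletant with LoaOOH. In that fit, 7.14% of all genes were called for C404A minus wild type with LoaOOH and 7.4% in control arrays, 1.36% and 1.47% for C404A minus deletant, and 11.2% for deletant minus wild type in each treatment. Genotype calls made in that fit and not with all 18 arrays were POL1 in the deletant and IRR1, MSH6 and POL3 (-0.30) in C404A against wild type with LoaOOH, RFA1 in the deletant and IRR1 and SMC3 (-0.32) in C404A against wild type in control arrays, RAD27 in C404A against the deletant in both treatments (-0.34 and -0.39), and DPB2 and RFA1 in C404A against the deletant with LoaOOH. Of the 42 calls, 15 held without each single array in turn, and the arrays on which the others rested are given with each gene. Under every alternative tried, 5 of the 42 calls held. In control arrays these were POL1 in C404A and CDC45 and IRR1 in the deletant, all against wild type. With LoaOOH they were IRR1 in the deletant against wild type and in C404A against the deletant.

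**Figure D2:**
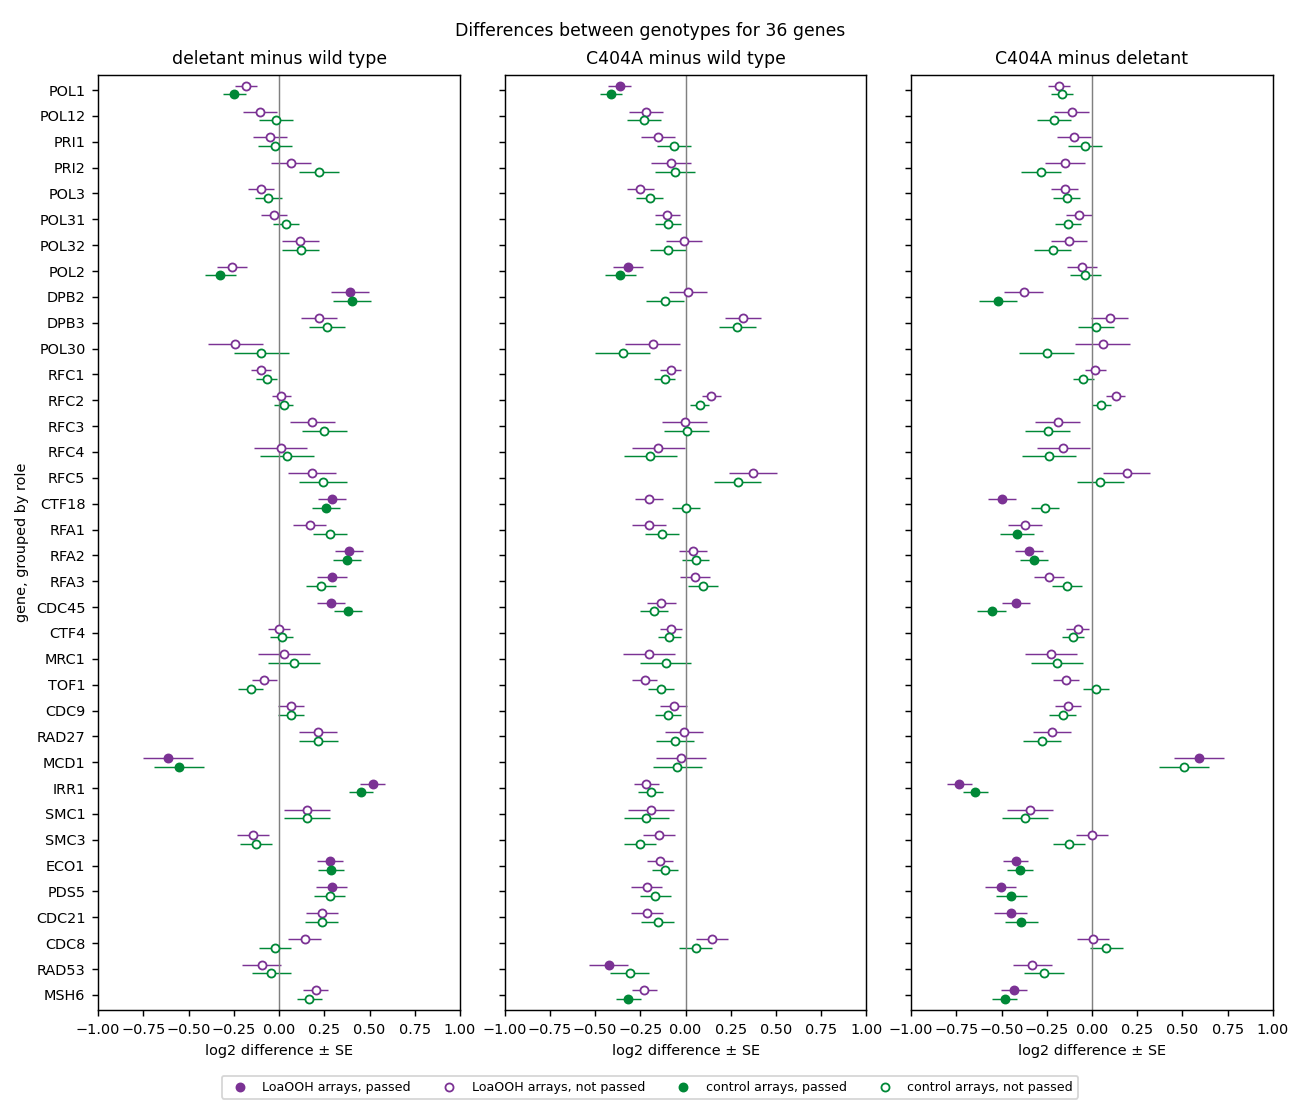
Log2 difference ± SE (horizontal axis) of each of the 36 genes (vertical axis, grouped by role) for deletant minus wild type, C404A minus wild type and C404A minus deletant, with LoaOOH arrays in purple and control arrays in green. Filled points passed the threshold; IRR1 is the farthest to the right among deletant minus wild type and the farthest to the left among C404A minus deletant.

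Among the polymerases, the catalytic subunits of alpha and epsilon were lower in C404A than in wild type, and an accessory subunit of epsilon was higher in the deletant. POL1 is the catalytic subunit of polymerase alpha, which starts each new strand from a primer made by primase. With LoaOOH, its log2 signal was 10.94, 11.13 and 10.92 in C404A, 11.13, 11.18 and 11.23 in the deletant, and 11.26, 11.39 and 11.44 in wild type. In control arrays it was 11.12, 11.14 and 11.09 in C404A, 11.29, 11.28 and 11.27 in the deletant, and 11.50, 11.56 and 11.53 in wild type. Every array of either mutant lay below every wild type array of the same treatment. POL1 was lower in C404A than in wild type with a difference of -0.36 ± 0.06 (SE) with LoaOOH (1.29-fold, adjusted p = 0.00113) and of -0.41 without (1.33-fold, adjusted p = 0.000340), and these calls held without each single array. In the deletant it was called lower in control arrays (-0.25, adjusted p = 0.0177), but not without deletant array 2 or 3 or wild type array 2 (adjusted p up to 0.0682). With LoaOOH the deletant difference was -0.18 (adjusted p = 0.0828). C404A and the deletant did not differ past the threshold in POL1 (-0.18 with LoaOOH and -0.16 without, adjusted p = 0.218 and 0.241).

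POL2 is the catalytic subunit of polymerase epsilon, the leading strand polymerase. Its log2 signal with LoaOOH was 10.01, 9.91 and 9.70 in C404A, 9.96, 9.83 and 10 in the deletant, and 10.21, 10.13 and 10.24 in wild type. Without LoaOOH it was 10.09, 9.87 and 9.96 in C404A, 10.09, 9.88 and 10.06 in the deletant, and 10.37, 10.28 and 10.36 in wild type. Neither mutant overlapped wild type in either treatment, and the POL2 values of the mutants overlapped each other. With LoaOOH it was lower in C404A than in wild type with a difference of -0.32 ± 0.08 (SE) (adjusted p = 0.0330), and in control arrays with a difference of -0.36 in C404A and -0.32 in the deletant (adjusted p = 0.0144 and 0.0220). The difference of -0.26 in the deletant with LoaOOH did not pass (adjusted p = 0.0665). These calls were less firm: the C404A call with LoaOOH was lost without C404A array 2 or 3 or any wild type array (adjusted p up to 0.140), the C404A call in control arrays without C404A array 2 or 3 or wild type array 1 or 3 (up to 0.0696), and the deletant call without deletant array 2 or wild type array 1 or 3 (up to 0.115). The C404A call with LoaOOH was also lost when the genes of chromosome V were left out.

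DPB2, the essential second subunit of polymerase epsilon, was higher in the deletant where POL2 was lower. With LoaOOH it stood at 10.21, 10.66 and 10.13 in C404A, 10.63, 10.69 and 10.82 in the deletant, and 10.34, 10.22 and 10.39 in wild type. Control arrays gave 10.46, 10.50 and 10.40 in C404A, 10.92, 10.94 and 11.06 in the deletant, and 10.55, 10.60 and 10.56 in wild type. The deletant arrays were the highest in both treatments, apart from C404A array 2 with LoaOOH, which lay among them. The deletant exceeded wild type by 0.39 ± 0.11 (SE) with LoaOOH (1.31-fold, adjusted p = 0.0272) and 0.40 in control arrays (1.32-fold, adjusted p = 0.0228), and C404A fell below the deletant with a difference of -0.52 in control arrays (1.43-fold, adjusted p = 0.0203). With LoaOOH the C404A minus deletant difference was -0.38 (adjusted p = 0.116), and without C404A LoaOOH array 2 it was -0.54 (adjusted p = 0.000921). The deletant calls were lost without deletant array 2 or 3 or wild type array 1 or 2 with LoaOOH (adjusted p up to 0.115) and without deletant array 2 or 3 or any wild type array in controls (up to 0.0871), and the C404A call without deletant array 2 or 3 or C404A array 3 (up to 0.107).

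The other 7 polymerase genes were called in no comparison. They are DPB3, a small subunit of epsilon, POL12, PRI1 and PRI2, which complete the alpha-primase complex, and the delta subunits POL3, POL31 and POL32. DPB3 differed from wild type by 0.32 ± 0.10 (SE) in C404A with LoaOOH and 0.29 without (adjusted p = 0.0735 and 0.0981), and by 0.22 and 0.26 in the deletant (adjusted p = 0.209 and 0.124). POL3, the catalytic subunit of delta, differed from wild type by -0.25 in C404A with LoaOOH (adjusted p = 0.0545) and by -0.20 without (adjusted p = 0.115). Across the 3 delta genes, C404A minus wild type ran from -0.25 to -0.01 with LoaOOH and from -0.20 to -0.09 in control arrays.

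RFA1, RFA2 and RFA3 encode RPA, which coats single-stranded DNA, and RFA2 was called higher in the deletant in both treatments. RFA2 stood at 12.20, 12.45 and 12.17 in C404A, 12.56, 12.66 and 12.65 in the deletant, and 12.20, 12.23 and 12.26 in wild type with LoaOOH. The values without LoaOOH were 12.31, 12.46 and 12.26 in C404A, 12.58, 12.67 and 12.74 in the deletant, and 12.21, 12.31 and 12.35 in wild type. The 3 deletant arrays lay above all others in each treatment, and C404A overlapped wild type. RFA2 exceeded wild type in the deletant by 0.39 ± 0.08 (SE) with LoaOOH (1.31-fold, adjusted p = 0.00325) and 0.38 without (1.30-fold, adjusted p = 0.00425), calls that held without each single array. In C404A it was lower than in the deletant with a difference of -0.35 with LoaOOH (adjusted p = 0.0346) and -0.32 without (adjusted p = 0.0482), calls that were lost without array 1 or 3 of C404A or any deletant array (adjusted p up to 0.161 and 0.243). Of the other subunits, RFA3 was called higher in the deletant than in wild type with LoaOOH (0.29, adjusted p = 0.0354), but not without any single array of the 2 groups (up to 0.132). This RFA3 call was also lost when the genes of chromosome V were left out. RFA1 was called lower in C404A than in the deletant in control arrays (-0.41, adjusted p = 0.0353), but not without deletant array 2 or 3 or C404A array 1 or 3 (up to 0.200). All 3 subunits had a positive deletant minus wild type difference in both treatments, from 0.17 to 0.39.

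CDC45 joins the replicative helicase when an origin fires. Its log2 signal with LoaOOH was 10.49, 10.52 and 10.36 in C404A, 10.92, 10.85 and 10.86 in the deletant, and 10.59, 10.56 and 10.62 in wild type. In control arrays it was 10.53, 10.60 and 10.38 in C404A, 11.10, 10.88 and 11.19 in the deletant, and 10.65, 10.65 and 10.74 in wild type. Deletant, wild type and C404A arrays fell into 3 levels without overlap in both treatments, the deletant highest and C404A lowest. CDC45 was higher in the deletant than in wild type by 0.29 ± 0.08 (SE) with LoaOOH (1.22-fold, adjusted p = 0.0282) and by 0.38 in control arrays (1.30-fold, adjusted p = 0.00440). The LoaOOH call was lost without any 1 of its 6 arrays (adjusted p up to 0.0996), and the control call held without each single array. It was lower in C404A than in the deletant with a difference of -0.42 with LoaOOH (1.34-fold, adjusted p = 0.0104) and of -0.56 in control arrays (1.47-fold, adjusted p = 0.00102). The call with LoaOOH was lost without deletant array 1 or C404A array 3 (up to 0.0603). The C404A minus wild type differences of -0.13 with LoaOOH and -0.17 in control arrays did not pass (adjusted p = 0.334 and 0.186). The other fork proteins CTF4, which links helicase and polymerase alpha, and MRC1 and TOF1, which protect stalled forks, were called in no comparison, nor were the Okazaki fragment genes CDC9 (DNA ligase) and RAD27 (flap nuclease).

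Of the 7 clamp and clamp loader genes, CTF18 was called and POL30, the clamp PCNA, and RFC1 to RFC5 were not. CTF18 replaces RFC1 in the alternative loader that serves cohesion. With LoaOOH it stood at 9.62, 9.86 and 9.76 in C404A, 10.11, 10.40 and 10.22 in the deletant, and 9.91, 9.91 and 10.02 in wild type. Without LoaOOH it was 9.79, 9.88 and 9.86 in C404A, 10.19, 10.08 and 10.04 in the deletant, and 9.85, 9.85 and 9.83 in wild type. The deletant arrays were the highest in both treatments, and C404A lay below wild type only with LoaOOH. The deletant exceeded wild type by 0.29 ± 0.08 (SE) with LoaOOH (adjusted p = 0.0226) and 0.26 without (adjusted p = 0.0448), but the LoaOOH call was lost without deletant array 2 or 3 or wild type array 1 or 2 (adjusted p up to 0.126), and the control call without any 1 of its 6 arrays (up to 0.152). The control call was also lost after quantile normalization and when the genes of chromosome V were left out. With LoaOOH, C404A was lower than the deletant with a difference of -0.50 (1.41-fold, adjusted p = 0.00255), and this call held without each single array. RFC5 differed from wild type by 0.37 ± 0.13 (SE) in C404A with LoaOOH (adjusted p = 0.104) and POL30 by -0.35 ± 0.15 (SE) in the C404A control (adjusted p = 0.174). The RFC5 difference was called without C404A LoaOOH array 1 (0.54, adjusted p = 0.0102).

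Cohesin was the role with the most calls. IRR1, the Scc3 subunit of the ring complex, had the smallest adjusted p of all 36 genes. With LoaOOH its log2 signal was 11, 11.21 and 11.02 in C404A, 11.74, 11.83 and 11.87 in the deletant, and 11.33, 11.24 and 11.31 in wild type. Control arrays gave 11.05, 11.21 and 11.07 in C404A, 11.76, 11.68 and 11.83 in the deletant, and 11.31, 11.34 and 11.27 in wild type. The 3 genotypes did not overlap in either treatment, with the deletant highest and C404A lowest. IRR1 was higher in the deletant than in wild type by 0.52 ± 0.07 (SE) with LoaOOH (1.43-fold, adjusted p = 6.97e-05) and 0.45 without (1.37-fold, adjusted p = 0.000269). It was lower in C404A than in the deletant with a difference of -0.73 with LoaOOH (1.66-fold, adjusted p = 1.18e-05) and -0.64 without (1.56-fold, adjusted p = 5.74e-05), and these calls held without each single array. The C404A minus wild type differences of -0.22 and -0.19 did not pass (adjusted p = 0.0735 with LoaOOH and 0.103 without), but passed without the replicate 2 arrays of C404A (-0.28, adjusted p = 0.0116, and -0.24, adjusted p = 0.0284).

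MCD1, the kleisin subunit Scc1 that closes the ring and is cleaved at anaphase, went the other way in the deletant. Its log2 signal with LoaOOH was 10.80, 11.01 and 10.64 in C404A, 10.31, 10.01 and 10.35 in the deletant, and 10.71, 10.88 and 10.93 in wild type. The values without LoaOOH were 10.66, 11.07 and 10.56 in C404A, 10.35, 10.06 and 10.35 in the deletant, and 10.72, 10.82 and 10.88 in wild type. The deletant arrays were the lowest in each treatment, array 2 the lowest of them, and C404A overlapped wild type. MCD1 was lower in the deletant than in wild type with a difference of -0.62 ± 0.14 (SE) with LoaOOH (1.53-fold, adjusted p = 0.00782) and -0.55 without (1.47-fold, adjusted p = 0.0163). The LoaOOH call was lost without deletant array 2 (-0.51, adjusted p = 0.0505) and the control call without deletant array 2 or wild type array 2 or 3 (adjusted p up to 0.0866). C404A exceeded the deletant by 0.59 with LoaOOH (1.51-fold, adjusted p = 0.0451), a call lost without any deletant array or C404A array 1 or 2 (up to 0.235), and by 0.51 in control arrays (adjusted p = 0.0836). The C404A minus wild type differences were -0.02 and -0.04 (adjusted p = 0.945 with LoaOOH and 0.867 without).

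ECO1 acetylates cohesin during replication and so establishes cohesion, and PDS5 binds the ring and maintains it. With LoaOOH, ECO1 stood at 8.56, 8.52 and 8.43 in C404A, 8.84, 8.92 and 9.02 in the deletant, and 8.68, 8.61 and 8.65 in wild type. In control arrays it was 8.65, 8.62 and 8.45 in C404A, 8.94, 8.94 and 9.04 in the deletant, and 8.78, 8.56 and 8.72 in wild type. The deletant arrays lay above all others in each treatment. ECO1 was higher in the deletant than in wild type by 0.28 ± 0.07 (SE) with LoaOOH (adjusted p = 0.0195) and 0.29 without (adjusted p = 0.0175), and lower in C404A than in the deletant with differences of -0.42 and -0.40 (adjusted p = 0.00486 with LoaOOH and 0.00841 without). The deletant calls were lost without array 2 or 3 of either group with LoaOOH (adjusted p up to 0.0976) and without wild type array 2 or deletant array 3 in controls (up to 0.0926), and the C404A call in controls without deletant array 3 (0.0537).

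PDS5 stood at 10.48, 10.60 and 10.71 in C404A, 11.02, 11.06 and 11.23 in the deletant, and 10.85, 10.79 and 10.79 in wild type with LoaOOH. Without LoaOOH it was 10.73, 10.55 and 10.50 in C404A, 11.13, 10.95 and 11.04 in the deletant, and 10.88, 10.76 and 10.63 in wild type. The deletant was the highest group in each treatment, and C404A overlapped wild type in control arrays only. C404A was lower than the deletant with a difference of -0.50 ± 0.09 (SE) with LoaOOH (1.42-fold, adjusted p = 0.00486) and -0.45 without (1.36-fold, adjusted p = 0.0135), and the deletant was higher than wild type by 0.29 with LoaOOH (adjusted p = 0.0419). The control call was lost without array 1 or 3 of the deletant or array 2 or 3 of C404A (adjusted p up to 0.0842), and the deletant call without any wild type array or deletant array 2 or 3 (up to 0.177). The deletant call was also lost when the genes of chromosome V were left out. SMC1 and SMC3, the paired ATPase arms of the ring, were called in no comparison. SMC1 had a C404A minus deletant difference of -0.34 ± 0.13 (SE) with LoaOOH and -0.37 without (adjusted p = 0.265 and 0.188).

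**Figure D3:**
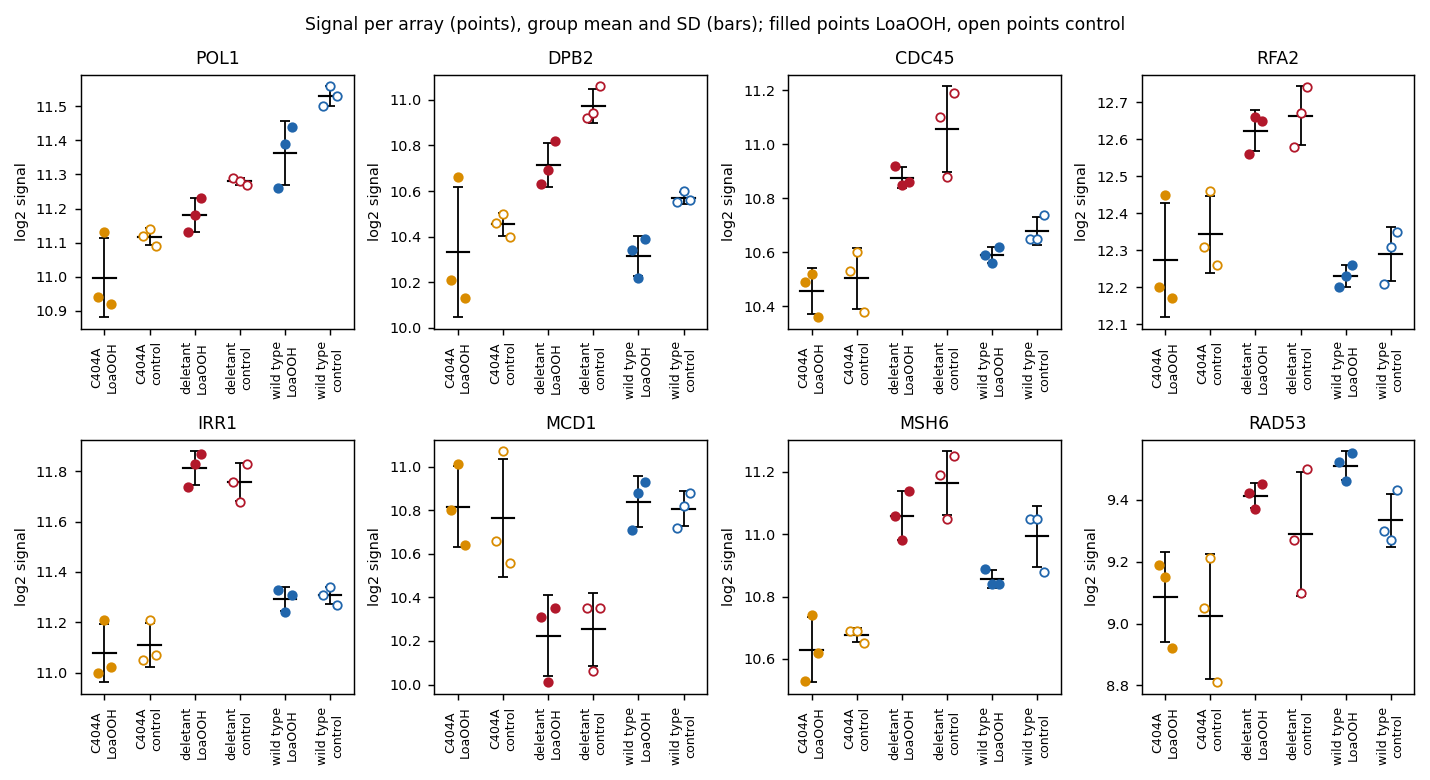
Log2 signal (vertical axes, each with its own range) of 8 genes on every array by group, with the group mean and SD of 3 arrays; filled points are LoaOOH arrays and open points controls. IRR1 and CDC45 form 3 levels by genotype, MCD1 is low in the deletant alone, and POL1 is highest in wild type.

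CDC21, thymidylate synthase, and MSH6, a mismatch recognition protein, separated the mutants from each other. With LoaOOH, CDC21 stood at 10.55, 10.80 and 10.78 in C404A, 11.19, 11.18 and 11.11 in the deletant, and 10.79, 10.93 and 11.04 in wild type. Control arrays gave 10.63, 10.88 and 10.55 in C404A, 11.06, 11.13 and 11.03 in the deletant, and 10.77, 10.87 and 10.88 in wild type. The deletant was the highest group in both treatments, and C404A and wild type overlapped. CDC21 was lower in C404A than in the deletant with a difference of -0.45 ± 0.09 (SE) with LoaOOH (adjusted p = 0.0191) and -0.39 without (adjusted p = 0.0400), calls lost without C404A array 1 or any deletant array (adjusted p up to 0.0903 with LoaOOH) and, in controls, also without C404A array 3 (up to 0.222). CDC8, thymidylate kinase, was called in no comparison.

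MSH6 stood at 10.53, 10.74 and 10.62 in C404A, 11.06, 10.98 and 11.14 in the deletant, and 10.89, 10.84 and 10.84 in wild type with LoaOOH. The values without LoaOOH were 10.69, 10.69 and 10.65 in C404A, 11.19, 11.05 and 11.25 in the deletant, and 11.05, 11.05 and 10.88 in wild type. C404A was the lowest group in each treatment with no overlap with either other genotype. MSH6 was lower in C404A than in the deletant with a difference of -0.43 ± 0.07 (SE) with LoaOOH (1.35-fold, adjusted p = 0.00385) and -0.48 without (1.40-fold, adjusted p = 0.00124), calls that held without each single array. It was also lower than in wild type with a difference of -0.32 in control arrays (1.25-fold, adjusted p = 0.0103), a call lost without wild type array 1 or 2 (adjusted p up to 0.0558), and the difference with LoaOOH was -0.23 (adjusted p = 0.0652).

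RAD53, the checkpoint kinase that responds to stalled forks, was lower in C404A than in wild type with LoaOOH. It stood at 9.19, 9.15 and 8.92 in C404A, 9.42, 9.37 and 9.45 in the deletant, and 9.52, 9.46 and 9.55 in wild type with LoaOOH. In control arrays it was 9.05, 9.21 and 8.81 in C404A, 9.27, 9.10 and 9.50 in the deletant, and 9.30, 9.27 and 9.43 in wild type. C404A lay below wild type in each treatment. The difference was -0.42 ± 0.11 (SE) with LoaOOH (1.34-fold, adjusted p = 0.0247), a call lost without any wild type array or C404A array 3 (adjusted p up to 0.111), and -0.31 in control arrays (adjusted p = 0.0977). The LoaOOH call was also lost when the genes of chromosome V were left out.

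The 21 genes called in no comparison of all 18 arrays were POL12, PRI1, PRI2, POL3, POL31, POL32, DPB3, POL30, RFC1, RFC2, RFC3, RFC4, RFC5, CTF4, MRC1, TOF1, CDC9, RAD27, SMC1, SMC3 and CDC8. Their deletant minus wild type differences ran from -0.24 (POL30) to 0.22 (DPB3) with LoaOOH and from -0.16 (TOF1) to 0.26 (DPB3) in control arrays. Their C404A minus wild type differences ran from -0.25 (POL3) to 0.37 (RFC5) with LoaOOH and from -0.35 (POL30) to 0.29 (RFC5) in control arrays. Their C404A minus deletant differences ran from -0.34 (SMC1) to 0.19 (RFC5) with LoaOOH and from -0.37 (SMC1) to 0.08 (CDC8) in control arrays. Their smallest adjusted p in any of the 6 genotype comparisons was 0.0545. A p that misses the threshold does not show that these genes were alike in the 3 genotypes. With SEs of 0.05 to 0.15 on a difference of 2 groups of 3 arrays, small differences would not have passed.

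For LoaOOH against control, none of the 36 genes was called in any genotype. In C404A, the LoaOOH minus control differences ran from -0.15 to 0.15 with a median of -0.05, and 0 genes had an unadjusted p under 0.05 by limma (5.85% of all genes). In the deletant they ran from -0.32 (POL30) to 0.19 with a median of -0.08, 3 genes had an unadjusted p under 0.05 (21.3% of all genes), and 3.56% of all genes were called. In wild type they ran from -0.25 (DPB2) to 0.24 with a median of -0.07, 2 genes had an unadjusted p under 0.05 (18.8% of all genes), and 0.257% of all genes were called, against 0% in C404A. The median over all genes was 0.00 or -0.00 in each. The number of the 36 genes below 0 was 26 in C404A, 25 in the deletant and 25 in wild type, beside 2755, 2697 and 2693 of all 5449 genes. LoaOOH and control arrays did not overlap for 0 genes in C404A (3.56% of all genes), 8 in the deletant (29.9%) and 9 in wild type (27.9%).

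DPB2 had the smallest adjusted p for LoaOOH in the deletant. Its LoaOOH minus control difference was -0.12 in C404A, -0.26 ± 0.11 (SE) in the deletant and -0.25 in wild type (adjusted p = 0.876, 0.165 and 0.210), with no overlap between treatments in the deletant or in wild type. Without the replicate 2 arrays of C404A, which took no array from the other genotypes, the same differences had an SE of 0.07 and passed in the deletant (adjusted p = 0.0235) and in wild type (adjusted p = 0.0317). Without C404A LoaOOH array 2 alone, the C404A difference was -0.29 (adjusted p = 0.0451). In the fit without both arrays, 3.98% of all genes were called in C404A, 9.82% in the deletant and 8.79% in wild type, and 0 of the 36 were called in C404A by limma (2, POL1 and DPB2, had an unadjusted p under 0.05). POL1, with -0.16 in wild type, had the smallest adjusted p there (0.154). The responses were also compared between genotypes. The deletant response minus the wild type response ran from -0.15 to 0.16 over the 36 genes, and the C404A response minus the wild type response from -0.21 (CTF18, unadjusted p = 0.0806) to 0.17. By limma, 0 of the 36 genes were called in either, 0 had an unadjusted p under 0.05 (0.367% and 0.606% of all genes), and 0% of all genes were called.

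**Figure D4:**
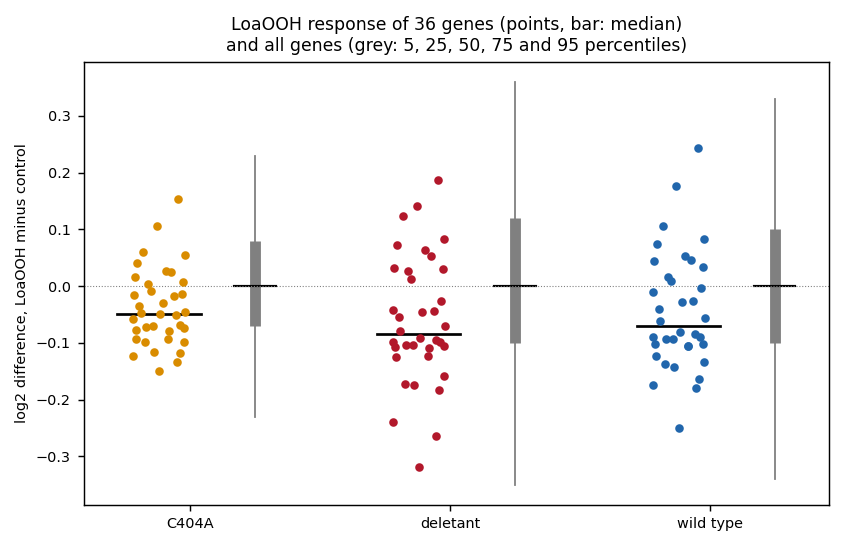
LoaOOH minus control log2 difference (vertical axis) of the 36 genes (coloured points, with their median as a bar) in each genotype, beside the percentiles of all 5449 genes in grey. The medians of the 36 genes are -0.05 in C404A, -0.08 in the deletant and -0.07 in wild type.

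Other genes of the same processes were set beside the 36. Among 25 genes of origin licensing and firing, the deletant differed from wild type in 3 with LoaOOH, namely MCM3, a subunit of the helicase, at 1.03, ORC5, a subunit of the origin recognition complex, at -0.26, and the licensing factor CDC6 at 0.58 (adjusted p = 7.62e-06, 0.0298 and 0.0293). In that comparison 7.36% of all genes were called higher and 3.05% lower. In control arrays MCM3 and ORC5 were called, at 0.85 and -0.32 (adjusted p = 4.82e-05 and 0.00802), where 6.94% of all genes were called higher and 3.17% lower. For the comparisons that follow, the shares of all genes are those given above beside the 36. In C404A, MCM3 alone was called against wild type, at 0.79 with LoaOOH and 0.58 in control arrays (adjusted p = 0.000127 and 0.00278). MCM3 lies on chromosome V, whose genes were higher in both mutants. For C404A minus deletant, SLD2, a firing factor, was called at -0.47 with LoaOOH (adjusted p = 0.0194), and 0 of the 25 were called in control arrays by limma (7 with an unadjusted p under 0.05). The median of the 24 licensing and firing genes off chromosome V was 0.05 for deletant minus wild type with LoaOOH and 0.01 in control arrays, and -0.03 and -0.11 for C404A minus wild type.

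Among 24 other genes of the fork, cohesion and repair, the genes of the cohesin loader were among those called. SCC2 was higher in the deletant than in wild type by 0.25 with LoaOOH and 0.24 in control arrays (adjusted p = 0.0157 and 0.0196), and lower in C404A than in the deletant with differences of -0.29 and -0.28 (adjusted p = 0.0333 and 0.0300). Its partner SCC4, on chromosome V, was called higher than in wild type with LoaOOH, by 1.02 in C404A and 0.98 in the deletant, and in control arrays, by 0.99 in C404A and 0.93 in the deletant. CSM3, whose protein pairs with Tof1 at the fork, was higher in C404A than in the deletant by 1.09 with LoaOOH and 1.12 in control arrays (2.13-fold and 2.18-fold, adjusted p = 1.01e-06 and 7.17e-07). Against wild type, C404A stood at 1.11 and 1.19 for CSM3 (adjusted p = 3.45e-07 and 3.28e-07), a larger difference than for any of the 36 genes, while TOF1 stood at -0.23 and -0.14 (adjusted p = 0.0689 and 0.252). The chromatin factor genes CAC2 and SPT16 were called in the deletant with LoaOOH (0.24 and -0.18, adjusted p = 0.0439 and 0.0201), and SPT16 in C404A with LoaOOH (-0.23, adjusted p = 0.00356). With LoaOOH against control in the deletant, the licensing factor TAH11 (-0.37, adjusted p = 0.0343) and the polymerase epsilon subunit DPB4 (-0.40, adjusted p = 0.0427) were called lower, and in C404A and wild type 0 genes of either list were called by limma. At an unadjusted p under 0.05 there were 2 of the 25 and 0 of the 24 in C404A, and 4 of the 25 and 2 of the 24 in wild type.

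Markers of cell cycle phase moved with genotype in part. In bulk samples, a larger share of cells in a phase and more RNA per cell cannot be told apart. The 36 genes had a median deviation from the wild type control mean of -0.18, -0.05 and -0.26 on the C404A LoaOOH arrays, 0.05, 0.02 and 0.07 on the deletant LoaOOH arrays, and -0.07, -0.08 and -0.02 on the wild type LoaOOH arrays. In control arrays the medians were -0.11, -0.04 and -0.23 in C404A, 0.11, 0.05 and 0.16 in the deletant, and -0.03, -0.00 and 0.04 in wild type. In control arrays the genotypes did not overlap, but narrowly. The nearest values were -0.04 in C404A against -0.03 in wild type, and 0.05 in the deletant against 0.04 in wild type. The wild type control arrays lie near 0 by construction, since deviations are from their own mean. With LoaOOH, C404A and wild type overlapped. C404A array 2 was the nearest to wild type of the C404A arrays. Over all genes, the medians per array ran from -0.05 to 0.03. The S phase histone list (7 genes) had 0 calls in any genotype comparison by limma, with 0 to 5 of 7 at an unadjusted p under 0.05, and its medians per array were 0.00 to 0.11 in C404A, -0.12 to -0.02 in the deletant and -0.03 to 0.01 in wild type in control arrays. With LoaOOH its medians were -0.06, 0.16 and -0.02 in C404A, -0.20, -0.16 and -0.12 in the deletant, and -0.15, -0.05 and 0.01 in wild type. All 7 histone genes were then higher in C404A than in the deletant, where 29 of the 36 genes and 3068 of all 5449 genes were lower. For 5 of the 7 the unadjusted p was under 0.05 by limma (12.9% of all genes). Of 7 G2/M genes, HST3 was called higher in the deletant than in wild type in both treatments (0.24 with LoaOOH and 0.26 in control arrays, adjusted p = 0.0458 and 0.0293), and none was called in C404A. The 5 G1 genes, themselves targets of Swi6 in part, had HO at -2.04 and CLN2 at -0.33 lower and PCL2 at 0.40 higher in the deletant than in wild type in control arrays, while HO (1.97), CLN2 (0.44) and CLN1 (0.39) were higher in C404A than in the deletant. With LoaOOH, HO (-2.11) was called lower and PCL2 (0.49) higher in the deletant than in wild type, PCL1 (0.47, adjusted p = 0.0384) higher in C404A than in wild type, and HO (2.18) higher in C404A than in the deletant. The median of the 5 for deletant minus wild type was -0.04 with LoaOOH and -0.26 in control arrays. Of 8 M/G1 genes, ASH1 (0.29) and DSE1 on chromosome V (0.67) were called higher in the deletant than in wild type in control arrays, and DSE1 (0.81) with LoaOOH. DSE1 was also called higher in C404A than in wild type, by 0.62 with LoaOOH and 0.53 in control arrays. The part of cell cycle phase in the differences of the 36 genes was not tested.

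**Figure D5:**
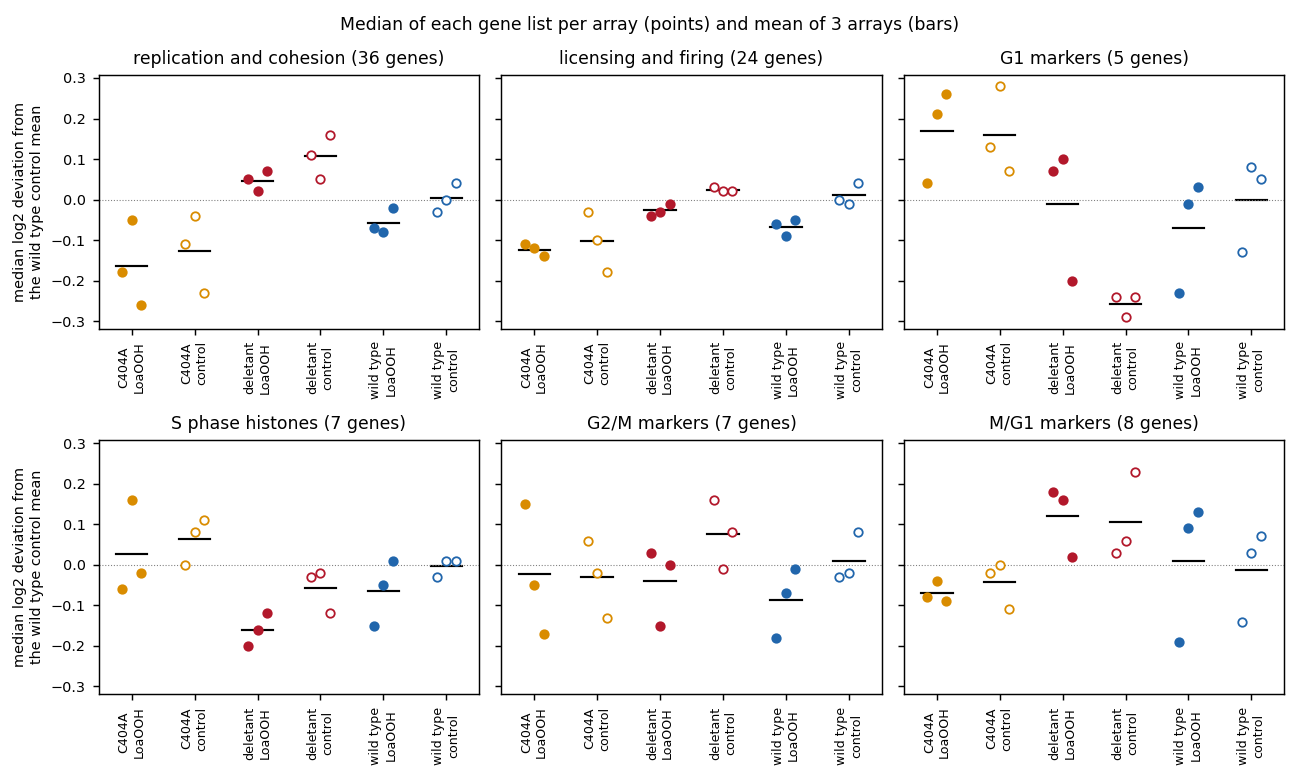
Median log2 deviation from the wild type control mean (vertical axes) of 6 gene lists on each array (points) with the mean of 3 arrays (bars), by group. By the mean of 3 arrays, the 36 replication and cohesion genes lie lowest in C404A and highest in the deletant, with arrays from -0.26 to 0.16. The S phase histones lie between -0.20 and 0.16 on every array, and with LoaOOH their mean is lowest in the deletant.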

How the data were processed

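Biotin-labelled cRNA from total RNA was hybridised to 18 Affymetrix arrays. Per the submitters' processing notes, the authors used Affymetrix Expression Console and PLIER to make the deposited log2 values. The sources used here give neither versions and settings nor how arrays were normalized. The log2 base was taken from the values' range of 2.47 to 15.0, and array medians over genes spanned 0.08. Of 10928 probe sets, the platform annotation gave 1 S. cerevisiae gene for 5498, which made 5449 genes (47 had several probe sets, of which 1 with a plain name, then the highest mean, was used). It gave the other organism for 1746, several genes for 1, controls for 166 and no name for 3517.

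Values were used as deposited. limma 3.58.1 in R 4.3.3 fitted the 6 group means over all 18 arrays, with no covariate, and the number of arrays limits the precision. Groups came from the labels. The fit was tested on simulated data. Genes described with values on every array were those called in at least 2 comparisons or among the 2 largest calls of a comparison. RFC5 and POL30, called in no comparison, were added outside this rule as adjacent genes whose differences had opposite signs. All other members are counted. The members and lists were chosen with earlier results of these data known. Replicate numbers were checked for pairing. Alternatives were quantile normalization, a filter on dim probe sets, the mean of probe sets, leaving out chromosome V, each array, or both C404A replicate 2 arrays, a replicate block, and the CT arrays alone. Some genes of the lists, and promoter motifs, were not analysed here.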

Additional observations from a re-analysis of the deposited data

How the results depend on the processing

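No call of the 36 genes reversed direction under any alternative tried. Of the 42 calls, 39 were still made after quantile normalization, 42 with the filter on dim probe sets, 42 with the mean of probe sets, 37 without chromosome V, 37 without both C404A replicate 2 arrays (an alternative chosen after seeing the data) and 6 with the CT arrays alone, where 2 arrays a group remained. Without chromosome V, 5 calls were lost. With LoaOOH, these were POL2 and RAD53 in C404A and RFA3 and PDS5 in the deletant, all against wild type. In control arrays, CTF18 in the deletant against wild type was lost. Quantile normalization lost 3 calls, all in control arrays. They were CTF18 in the deletant against wild type, and RFA2 and CDC21 in C404A against the deletant. With the CT arrays alone, the counts of called genes were 1 for deletant minus wild type with LoaOOH and 2 in control arrays, 0 for C404A minus wild type with LoaOOH, and 1 for C404A minus deletant with LoaOOH and 0 in control arrays. For C404A minus wild type with LoaOOH (3 genes), the count was 5 after quantile normalization, 1 without chromosome V and 5 without both C404A replicate 2 arrays. Without those arrays, 1 gene (DPB2) was called for LoaOOH in the deletant and 1 (DPB2) in wild type. Quantile normalization added IRR1 and POL3 in C404A and POL2 in the deletant, all against wild type with LoaOOH, and the filter on dim probe sets added PDS5 in the deletant control.

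Leaving out each array in turn gave 2 to 7 called genes for deletant minus wild type with LoaOOH and 4 to 8 in control arrays, 1 to 5 and 1 to 3 for C404A minus wild type, 5 to 11 and 3 to 8 for C404A minus deletant, and 0 to 1 for LoaOOH in C404A. The other counts were 0 throughout. Leaving out C404A LoaOOH array 2 alone added IRR1, MSH6 and POL3 against wild type and DPB2, RFA1 and POL1 against the deletant. Other calls added by leaving out 1 array were, with LoaOOH, RFC5 and DPB3 in C404A and POL1 in the deletant and, in control arrays, DPB3, RFA3 and PDS5 in the deletant, all against wild type.

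The replicate numbers did not meet the rule for pairing, since samples of the same genotype and number deviated together at 0.05 to 0.86 and 1 of the 9 pairs was not over 0.1. Their median was 0.26, against -0.23 for the same genotype with other numbers and -0.03 for the same number in other genotypes. The replicate block spans genotypes and so does not model a pairing within a genotype. No such paired fit was made, and the LoaOOH tests were unpaired. Where samples of a pair deviate together, an unpaired test has less power to call a change. The lack of LoaOOH calls therefore does not show that these genes did not respond. With the replicate block, the counts were 9 and 10 for deletant minus wild type (LoaOOH, then control), 3 and 3 for C404A minus wild type, 8 and 9 for C404A minus deletant, and 0 for each LoaOOH response and difference of responses. Of the 42 calls, 40 were still made with the block, which lost PDS5 in the deletant against wild type (0.29, adjusted p = 0.0585) and MCD1 in C404A against the deletant (0.59, adjusted p = 0.0836), both with LoaOOH, and added POL2 in the deletant with LoaOOH and RFA1 in the deletant control.

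Over all genes, the counts that moved by over 1.5 times were as follows. Without chromosome V, 255 rather than 567 genes were called for deletant minus wild type with LoaOOH, 250 rather than 551 in control arrays, 69 rather than 402 for C404A minus wild type with LoaOOH and 94 rather than 449 in control arrays. With the CT arrays alone, 264 were called for C404A minus wild type in control arrays, and 26 rather than 79 (LoaOOH) and 15 rather than 98 (control) for C404A minus deletant. For LoaOOH in the deletant, 194 genes were called, 0 with the block or the CT arrays alone and 535 without both C404A replicate 2 arrays; in wild type 14, with 0, 0 and 479; in C404A 0, with 217 without both arrays. Leaving out 1 array gave 0 to 59 for LoaOOH in the deletant, 0 to 1 in wild type and 0 to 183 in C404A, 268 to 465 for C404A minus wild type in control arrays, and 45 to 77 (LoaOOH) and 40 to 99 (control) for C404A minus deletant.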

Other observations

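RFC5 and POL30 are adjacent genes on chromosome II, and their C404A minus wild type differences had opposite signs (0.37 for RFC5 and -0.18 for POL30 with LoaOOH, 0.29 and -0.35 in control arrays). RFC5 had log2 signals of 10.98, 11.37 and 11.57 in C404A with LoaOOH and 11.30, 11.29 and 11.60 in the C404A control, against 10.93, 11.03 and 10.84 and 11.10, 11.26 and 10.98 in the matching wild type groups. POL30 had 12.22, 12.52 and 12.08 in C404A with LoaOOH and 12.32, 12.56 and 11.97 in the C404A control, against 12.32, 12.48 and 12.57 and 12.48, 12.60 and 12.81 in the matching wild type groups. C404A array 3 was the highest for RFC5 and the lowest for POL30 in both treatments. Neither gene was called with all 18 arrays, and RFC5 was called higher in C404A than in wild type without C404A LoaOOH array 1 (0.54, adjusted p = 0.0102). PDS5 and CTF18 lie on chromosome XIII with 1 gene between them, and both were called lower in C404A than in the deletant with LoaOOH.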
